A study of Mus musculus with 8 samples.

Results

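The genes described here are 33 presynaptic genes, listed by name as parts of the synaptic vesicle, the SNARE machinery, the active zone or vesicle endocytosis. All 33 were found among the 18301 genes of the table, and all 33 were among the 12898 genes tested. They fall into 5 roles: 8 genes of the vesicle membrane and the synapsins, 7 calcium sensors and Rab3 partners, 8 SNAREs with their complexins, priming and disassembly factors, 6 active zone scaffolds and 4 endocytosis genes. The series profiled the mRNA under ribosomes (ribosome footprints) and the total RNA of neurons labelled as cortical and glutamatergic, grown in culture to day 8 from CGR8 cells, a line of mouse embryonic stem cells. The neurons carried either a double knockout of Eif4g1 and Eif4g3 (DKO) or the wildtype genes (WT), with 2 footprint and 2 RNA libraries of each. Cycloheximide, which stalls ribosomes on their mRNA, was given for 5 minutes at 100 µg/ml. Eif4g1 and Eif4g3 encode scaffolds of the complex that brings ribosomes to capped mRNA. The series title speaks of microexons of these genes, and the labels name no deleted part. The labels carry a culture code that is WT for WT replicate 2 only, while WT replicate 1 and both DKO cultures have codes of the letter c with numbers, which the labels do not explain. The labels call the libraries replicates and do not say whether the cultures were grown separately, so the spread behind each p-value may be technical.

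At a synapse, transmitter is packed into vesicles that dock at the active zone, a protein scaffold at the presynaptic membrane. Calcium entry is sensed by synaptotagmin on the vesicle, and the SNARE proteins of vesicle and plasma membrane zip together and fuse the membranes, under the control of complexins and of priming factors. The vesicle proteins are then recovered by endocytosis and the SNARE complex is taken apart for another round.

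Complexins bind the assembled SNARE complex and control its fusion, and Cplx1 and Cplx2 are close paralogues. The first 300 bases of their coding sequences are shown because the footprints and the RNA of this pair stood in different proportions, as described below. Both are from GENCODE M21 transcripts on GRCm38, and capitals mark the bases that differ between them. These bases of Cplx1-201 lie in coding exons within chr5:108520234-108548536 on the minus strand and those of Cplx2-201 within chr13:54378669-54379604 on the plus strand.
Cplx1-201: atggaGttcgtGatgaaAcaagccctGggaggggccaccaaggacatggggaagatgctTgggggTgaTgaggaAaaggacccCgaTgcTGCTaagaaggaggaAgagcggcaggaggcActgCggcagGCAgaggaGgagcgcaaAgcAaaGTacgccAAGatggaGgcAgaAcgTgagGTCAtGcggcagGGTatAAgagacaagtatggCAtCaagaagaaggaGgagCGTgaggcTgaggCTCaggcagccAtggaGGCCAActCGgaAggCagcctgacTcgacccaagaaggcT
Cplx2-201: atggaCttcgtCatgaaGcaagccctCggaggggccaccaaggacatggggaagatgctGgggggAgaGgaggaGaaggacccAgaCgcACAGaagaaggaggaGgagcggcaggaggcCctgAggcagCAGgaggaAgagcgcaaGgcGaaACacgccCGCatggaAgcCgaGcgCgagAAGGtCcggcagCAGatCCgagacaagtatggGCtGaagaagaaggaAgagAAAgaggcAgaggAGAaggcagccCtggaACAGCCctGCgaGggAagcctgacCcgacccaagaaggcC
Of the 300 bases, 234 are identical and 66 differ. Over the whole coding sequence of 402 bases, 320 (79.6%) are identical.

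Snap25 encodes a SNARE of the plasma membrane and is made in forms that use either of 2 neighbouring exons of 118 bases. These exons are shown because the footprints and the RNA of Snap25 were assigned mostly to different forms in the estimated counts, as described below. They lie on the plus strand of GRCm38 at chr2:136769743-136769860 (upstream, in Snap25-202) and chr2:136770057-136770174 (downstream, in Snap25-201). Capitals again mark the bases that differ, 31 of 118, and 87 (73.7%) are identical.
Snap25-202 exon: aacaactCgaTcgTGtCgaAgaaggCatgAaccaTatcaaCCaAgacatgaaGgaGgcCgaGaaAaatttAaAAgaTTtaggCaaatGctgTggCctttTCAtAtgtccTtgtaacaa
Snap25-201 exon: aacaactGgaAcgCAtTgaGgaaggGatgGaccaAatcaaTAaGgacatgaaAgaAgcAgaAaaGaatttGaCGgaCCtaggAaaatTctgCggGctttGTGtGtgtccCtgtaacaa

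The DKO libraries held 10490535 and 18381021 estimated counts of footprints, against 19753419 and 14450410 in WT. In RNA they held 44786643 and 15862034 in DKO, against 14762047 and 22352224 in WT. Eif4g1 stood at 154 and 287 CPM (counts-per-million) in DKO footprints, against 299.8 and 263 CPM in WT footprints. In RNA it stood at 125 and 305 CPM in DKO, against 288 and 279.9 CPM in WT. It was thus low in both libraries of DKO replicate 1 only, and neither it nor Eif4g3 (164 and 172 CPM in DKO footprints, 169 and 153 CPM in WT footprints) was called changed. Whole-gene counts do not show whether a short exon is absent. The 11 neuronal markers were all present, among them Tubb3 at 2340 CPM or more in every footprint library. Of the 10 markers of cortical glutamatergic neurons, Slc17a7, Fezf2 and Emx1 stayed under 1 CPM in every library, while the vesicular glutamate transporter Slc17a6 had 234 and 194 CPM in DKO footprints and 166 and 74.3 CPM in WT footprints. Gad1, of GABAergic neurons, had 183 and 173 CPM in DKO footprints and 189 and 179.8 CPM in WT footprints, so markers of cortical identity named above were absent and both transmitter types were present.

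WT replicate 2 stood apart from the other cultures in both assays, on a first principal component that held 56.0% of the variance in footprints and 56.4% in RNA. Its footprints had the highest sums for 11 measured markers of dividing cells (333 and 324 CPM in DKO, 374 and 495 CPM in WT, replicate 2 last), for 10 of the oligodendrocyte lineage (741 and 801 CPM in DKO, 950.3 and 1178 CPM in WT) and for 12 of fibroblast, mural and endothelial cells (593 and 195 CPM in DKO, 353 and 983 CPM in WT). All of these measured markers reached 1 CPM in some library. In the last list, Lum, Pdgfrb, Rgs5 and Pecam1 were not highest in the footprints of WT replicate 2, and the other genes were. The 11 neuronal markers summed to 8578 and 9233 CPM in DKO footprints, against 9321 and 7985 CPM in WT footprints. In bulk cultures, fewer cells of a type and less RNA per cell cannot be told apart.

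Most of the 33 genes were well expressed. They summed to 10066 and 10286 CPM in DKO footprints, against 10440 and 8921 CPM in WT footprints, and to 4938 and 5378 CPM in DKO RNA, against 5371 and 4885 CPM in WT RNA. Single genes ranged in their mean footprints from 12.3 CPM for Doc2b to 1140 CPM for Rab3a. WT replicate 2 had the lowest footprint value of the 4 libraries for 25 of the 33 genes, against 36.0% of all genes, and the lowest RNA value for 17, against 31.3% of all genes.

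**Figure D1:**
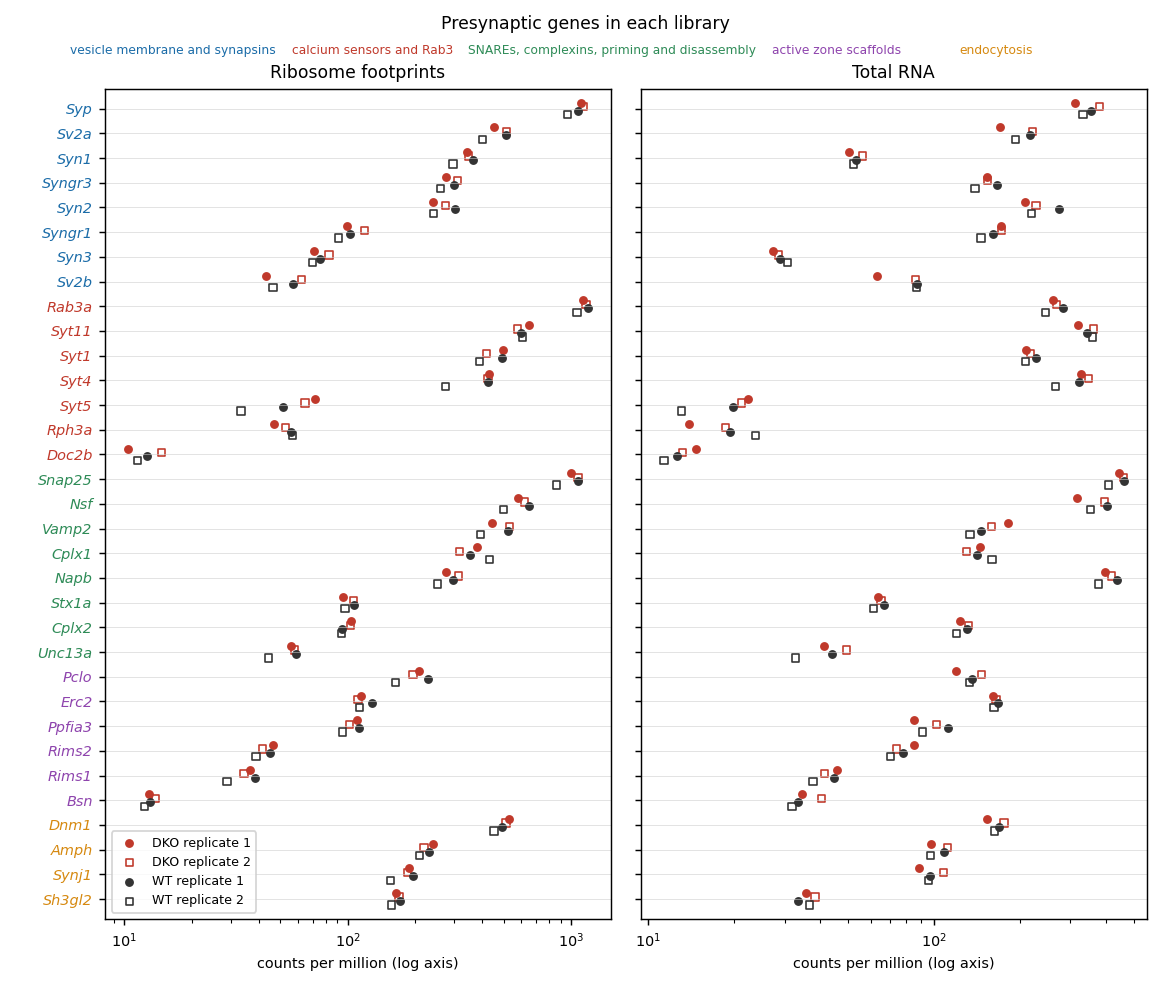
CPM on a log axis for each presynaptic gene in the 4 footprint libraries (left) and the 4 RNA libraries (right), with DKO in red, WT in black and gene labels coloured by role. The symbols of a gene lie close together beside the differences between genes, and the open black square of WT replicate 2 is the lowest footprint symbol of 25 of the 33 genes.

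Levels per length were compared for the 28 genes whose listed isoforms hold at least 90% of the longest annotated coding sequence, as footprint CPM per kilobase of coding sequence and RNA CPM per kilobase of transcript, over 4 libraries each. The highest footprint level per length was that of Rab3a, the small GTPase that tethers vesicles, at 1727 ± 83.2 CPM per kilobase (SD, n = 4). Snap25 followed at 1628 ± 164, then Vamp2, the SNARE of the vesicle membrane, at 1361 ± 187, and Syp, the vesicle membrane protein synaptophysin, at 1142 ± 79.7 CPM per kilobase. The value of Vamp2 counts all its isoforms, and only 10.9% of its footprints were on those annotated as protein coding. It was divided by the 348 coding bases of Vamp2-201, where the longest annotated coding sequence of Vamp2 has 489. The ranges of Rab3a and Snap25 overlapped, as did those of Vamp2 with Snap25 and with Syp.

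The lowest were Rims2, an active zone scaffold that binds Rab3, at 9.07 ± 0.69, Doc2b, a calcium sensor of high affinity, at 9.96 ± 1.49, Sv2b, a vesicle glycoprotein, at 25.4 ± 4.36, and Rph3a, the Rab3 effector rabphilin, at 25.95 ± 2.19 CPM per kilobase (SD, n = 4). Rims2 and Doc2b overlapped, and so did Sv2b and Rph3a. RNA levels per length ran from 2.98 ± 0.32 CPM per kilobase for Doc2b to 207 ± 11.6 CPM per kilobase for Snap25 (SD, n = 4). Across these 28 genes the logarithms of the levels correlated at r = 0.87 (Spearman's rho = 0.87), a description over genes that share the same 8 libraries. Genes with more RNA per length thus had more footprints per length, and Rims2 lay farthest below the rest. The other 5 genes, Rims1, Bsn, Pclo, Unc13a and Synj1, are not placed on this scale because the listed isoforms hold under 90% of their longest annotated coding sequence, from none of it in Unc13a and Synj1 to 2186 of 4272 bases in Rims1.

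**Figure D2:**
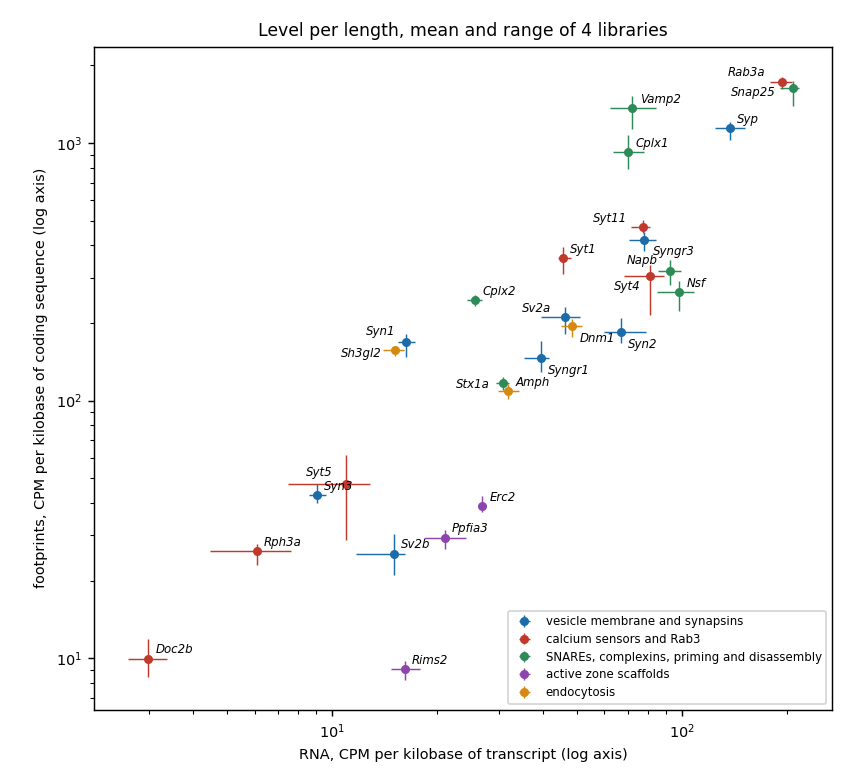
Footprint CPM per kilobase of coding sequence against RNA CPM per kilobase of transcript for 28 presynaptic genes, both on log axes. Points are means of 4 libraries (2 DKO and 2 WT) and bars their range, coloured by role, from Doc2b at the lower left (2.98 CPM per kilobase of RNA) to Snap25 and Rab3a at the upper right, with Rims2 lowest.

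The first comparison set the footprints of DKO neurons against those of WT neurons. No member was called, and most fold changes were small and positive, a sign that turned for most genes without the culture WT replicate 2, as described below. Of the 33 genes, 28 had a positive log2 fold change and 5 a negative one, with a median of 0.06, against 50.8% positive and a median of 0.00 over all genes. The values ran from -0.17 to 0.67, and 32 of the 33 95% intervals stayed within 2-fold in either direction. The quasi-likelihood test of edgeR, adjusted over all tested genes by Benjamini-Hochberg, called 0 of 33 (smallest adjusted p = 0.836), where 0.00775% of all genes were called (1 of 12898). An unadjusted p under 0.05 was found for 1 member, and DESeq2 and limma-voom also called 0 members.

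Among the calcium sensors, Syt5, a synaptotagmin, had the largest value. It stood at 71.4 and 64.4 CPM in DKO footprints, against 51.4 and 33.3 CPM in WT footprints. Both DKO libraries lay above both WT libraries, and the WT libraries differed more from each other than the DKO libraries did. On the log2 scale DKO over WT was 0.67 ± 0.24 (SE, 95% interval 0.11 to 1.24; edgeR, adjusted p = 0.836). Syt5 lies on chromosome 7 at 4539765 to 4547541 (GRCm38, ENSMUSG00000004961).

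Syt4, a synaptotagmin that lacks a residue needed for calcium binding, stood at 430.1 and 425 CPM in DKO footprints, against 426 and 275 CPM in WT footprints. WT replicate 2 alone was low and the groups overlapped, and Syt4 was at 0.29 ± 0.18 (log2, adjusted p = 0.854, edgeR). Rph3a stood at 46.8 and 52.7 CPM in DKO footprints, against 55.7 and 56.8 CPM in WT footprints, the single member with both DKO libraries below both WT libraries (-0.17 ± 0.14, adjusted p = 0.872, edgeR). Syt1, the main calcium sensor of fast release, was at 0.06 ± 0.13, Syt11, a synaptotagmin not thought to bind calcium, at 0.02 ± 0.11, Rab3a at 0.03 ± 0.12 and Doc2b at 0.08 ± 0.18 on the log2 scale.

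Of the vesicle membrane genes and synapsins, 7 of 8 were positive and 0 called, with a range of -0.08 to 0.18. Syngr1, the vesicle membrane protein synaptogyrin, stood at 99.1 and 119 CPM in DKO footprints, against 102 and 90.9 CPM in WT footprints (0.18 ± 0.11, adjusted p = 0.854, edgeR). The groups overlapped, because DKO replicate 1 lay below WT replicate 1. Synaptophysin (Syp) had 1116 and 1137 CPM in DKO footprints, against 1081 and 968 CPM in WT footprints, and both DKO libraries were above both WT libraries (0.14 ± 0.13, adjusted p = 0.883, edgeR). Syn2, a synapsin that ties vesicles into the reserve pool, was the negative one (-0.08 ± 0.14).

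Of the SNAREs, complexins, priming and disassembly factors, 6 of 8 were positive and 0 called, between -0.17 and 0.13. Cplx1 stood at 379 and 317 CPM in DKO footprints, against 352 and 431 CPM in WT footprints (-0.17 ± 0.13, adjusted p = 0.867, edgeR). It was the member for which WT replicate 2 was highest by the widest margin over WT replicate 1, and the groups overlapped. Cplx2 had 103 and 103 CPM in DKO footprints, against 94.6 and 93.9 CPM in WT footprints, so that the groups stood apart by a small step (0.13 ± 0.09, adjusted p = 0.861, edgeR). Snap25 (0.10 ± 0.13), Vamp2 (0.08 ± 0.15), the plasma membrane SNARE Stx1a (-0.02 ± 0.10), the priming factor Unc13a (0.13 ± 0.17), Nsf, the ATPase that takes SNARE complexes apart (0.06 ± 0.15), and its adaptor Napb (0.11 ± 0.12) made up the rest.

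Of the active zone scaffolds, 5 of 6 were positive and 0 called, between -0.10 and 0.08. Erc2, which links the scaffold proteins, stood at 114 and 111 CPM in DKO footprints, against 128 and 113 CPM in WT footprints (-0.10 ± 0.10, adjusted p = 0.896, edgeR), and its groups overlapped. All 4 endocytosis genes were positive and 0 were called, between 0.03 and 0.14. The highest was Dnm1, the neuronal dynamin that cuts vesicles from the membrane, at 531 and 512 CPM in DKO footprints, against 491 and 452 CPM in WT footprints, with both DKO libraries above both WT libraries (0.14 ± 0.11, adjusted p = 0.862, edgeR). In all, 4 members (Syp, Syt5, Cplx2 and Dnm1) had both DKO footprint libraries above both WT libraries, where 16.3% of all genes did, and 1 (Rph3a) had both below, where 16.2% of all genes did.

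**Figure D3:**
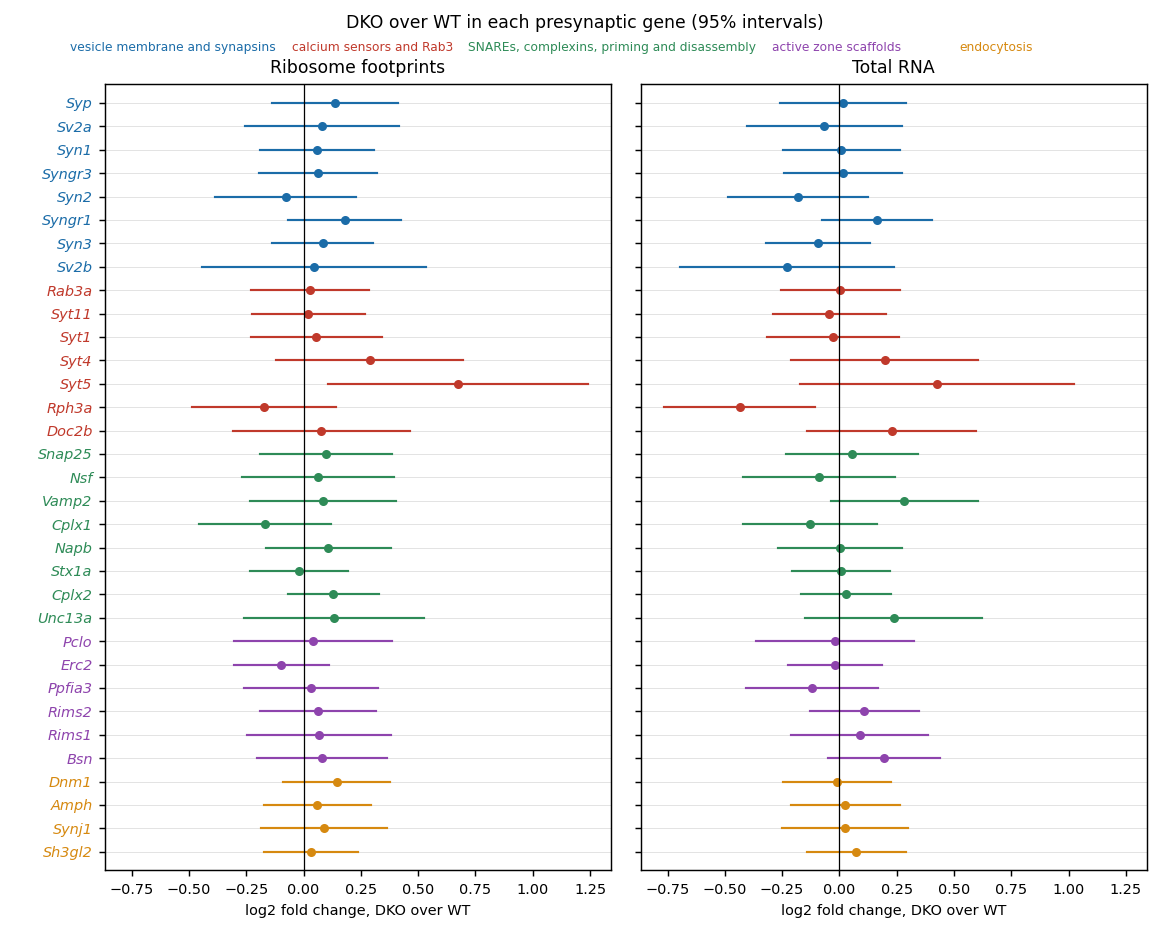
Log2 fold change of DKO over WT with its 95% interval for each presynaptic gene in footprints (left) and RNA (right), coloured by role. All intervals cross 0 except those of Syt5 in footprints (0.11 to 1.24) and Rph3a in RNA (-0.77 to -0.11), and no gene passed after adjustment.

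The direction of the footprint median followed the WT cultures. WT replicate 1 lay above WT replicate 2 in footprints for 30 of 33 genes, by a median of 0.20 on the log2 scale, where all genes had a median of 0.03. DKO replicate 1 lay above DKO replicate 2 for 14 of 33, by a median of -0.04. Without both libraries of WT replicate 2, the median of DKO over WT was -0.05 and 10 of 33 genes were positive. Without both libraries of WT replicate 1, the median was 0.22, 31 were positive and 2 were called, namely Syt5 (1.04 ± 0.13, adjusted p = 0.00115, edgeR) and Syt4 (0.66 ± 0.13, adjusted p = 0.0198, edgeR). Over all genes that fit called 196 higher and 324 lower (3.93%), and each fit without a WT culture takes the single WT library left to vary like the other groups. Without WT replicate 2, Syt5 was at 0.40 ± 0.12 and Syt4 at 0.00 ± 0.14, and 0 members were called. WT replicate 2 is also the culture whose code is WT and the culture with the highest sums of markers of dividing and non-neuronal cells, and the part of these markers in the presynaptic values was not tested.

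**Figure D4:**
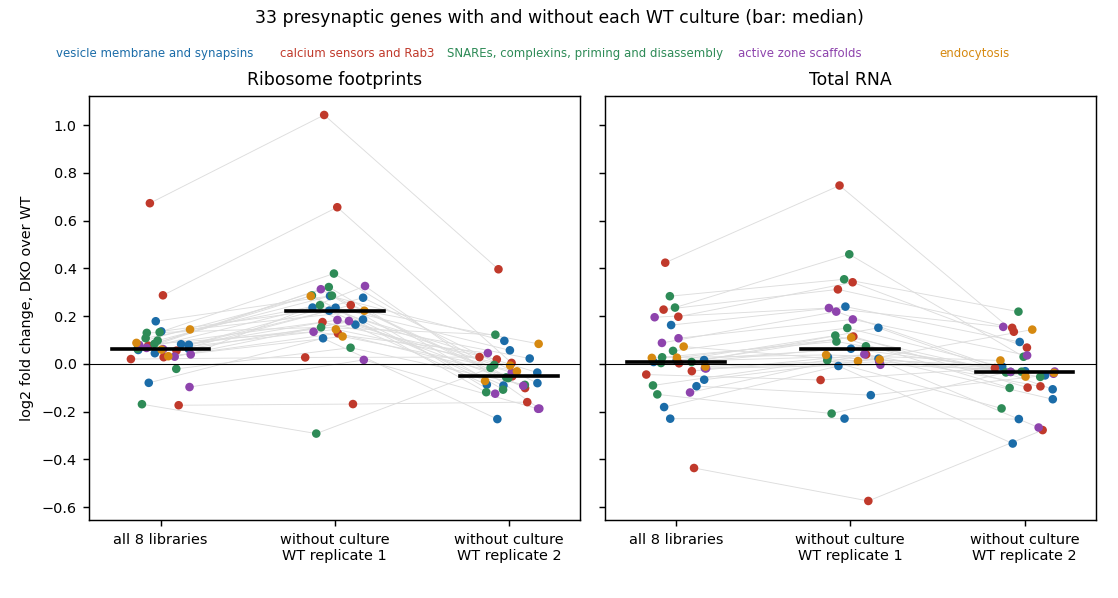
Log2 fold change of DKO over WT for each presynaptic gene with all 8 libraries, without the culture WT replicate 1 and without the culture WT replicate 2, in footprints (left) and RNA (right). Points are genes coloured by role, grey lines join the same gene and black bars are medians, which in footprints stand at 0.06, 0.22 and -0.05.

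The second comparison set the RNA of DKO neurons against that of WT neurons. The values of the presynaptic genes centred near 0, and no member was called. Of the 33, 20 were positive and 13 negative, with a median of 0.01, against 49.6% positive and a median of -0.00 over all genes. The edgeR quasi-likelihood test called 0 of 33 (smallest adjusted p = 0.851), where 0.0155% of all genes were called (2 of 12898), and DESeq2 and limma-voom also called 0 members. An unadjusted p under 0.05 was found for 1 member, Rph3a. Of the intervals, 32 of 33 stayed within 2-fold, the exception being Syt5.

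Rph3a RNA stood at 13.9 and 18.6 CPM in DKO, against 19.3 and 23.8 CPM in WT. Both DKO libraries were below both WT libraries, DKO replicate 2 by a small step (-0.44 ± 0.15, 95% interval -0.77 to -0.11, adjusted p = 0.851, edgeR). Rph3a lies on chromosome 5 at 120940499 to 121010092 (GRCm38, ENSMUSG00000029608). Syt5 RNA stood at 22.4 and 21.2 CPM in DKO, against 19.9 and 13.1 CPM in WT, with WT replicate 2 again the low library (0.42 ± 0.25, adjusted p = 0.855, edgeR). Without the culture WT replicate 1, Syt5 RNA was called (0.75 ± 0.14, adjusted p = 0.0111, edgeR), where 3.58% of all genes were, and without WT replicate 2 it was at 0.14 ± 0.13.

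Vamp2 RNA stood at 181 and 159 CPM in DKO, against 146 and 134 CPM in WT, so both DKO libraries were higher (0.28 ± 0.15, adjusted p = 0.851, edgeR). Bsn, the giant active zone scaffold bassoon, had 34.6 and 40.4 CPM in DKO RNA, against 33.5 and 31.8 CPM in WT RNA, again with both DKO libraries higher (0.20 ± 0.11, adjusted p = 0.851, edgeR). Syn2 RNA had 208 and 227 CPM in DKO, against 274 and 219 CPM in WT, and WT replicate 1 alone was high (-0.18 ± 0.14, adjusted p = 0.889, edgeR). Sv2b RNA had 62.9 and 86.1 CPM in DKO, against 86.9 and 87.0 CPM in WT, and DKO replicate 1 alone was low (-0.23 ± 0.20, adjusted p = 0.908, edgeR). Both DKO RNA libraries lay above both WT libraries for 6 members (Syngr1, Syt4, Syt5, Doc2b, Vamp2 and Bsn), where 19.6% of all genes did, and below them for 3 (Syn3, Sv2b and Rph3a), where 18.9% did.

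By role, the RNA medians were -0.03 for vesicle membrane genes and synapsins, 0.00 for calcium sensors and Rab3 partners, 0.02 for the SNARE group, 0.04 for active zone scaffolds and 0.03 for endocytosis genes. Without the culture WT replicate 2, 10 of the 33 genes were positive (median -0.03), and without WT replicate 1, 26 were (median 0.06).

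The third comparison concerned translational efficiency, which is footprint level over RNA level, in DKO against WT neurons. It was tested as the interaction of assay and genotype, on shares of each library, so that a change common to all genes would not be seen. No member was called. The edgeR quasi-likelihood test called 0 of 33, where 0.0% of all genes were called, with 0 members at an unadjusted p under 0.05, and DESeq2 and limma-voom called 0 members. The log2 changes ran from -0.20 to 0.27 with a median of 0.06, against 0.01 over all genes, and 23 of 33 were positive against 53.1% of all genes. The fit did not use the pairing of footprint and RNA libraries by culture. That pairing was taken from culture codes, which are spelled differently for DKO replicate 2.

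The members with the smallest p were Rph3a (0.26 ± 0.21), Syn3, a synapsin (0.18 ± 0.15), and Dnm1 (0.16 ± 0.15) on the higher side and Vamp2 (-0.20 ± 0.21), Bsn (-0.12 ± 0.17) and Doc2b (-0.15 ± 0.24) on the lower side, each with an adjusted p of 0.9997 by edgeR. In single cultures, the log2 ratio of Syn3 was 1.37 and 1.53 in DKO, against 1.39 and 1.18 in WT, and that of Vamp2 was 1.30 and 1.73 in DKO, against 1.84 and 1.56 in WT. Both overlapped between genotypes, as did Doc2b at -0.50 and 0.16 in DKO, against -0.00386 and 0.01 in WT. The footprints of Doc2b were few, at 10.4 and 14.7 CPM in DKO, against 12.6 and 11.5 CPM in WT. Both DKO cultures lay above both WT cultures for 5 members (Syn2, Sv2b, Syt5, Napb and Dnm1), where 13.8% of all genes did, and below them for 1 (Bsn), where 13.2% did.

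The last comparison set footprints against RNA within the same neurons, as the mean over both genotypes, and asked which presynaptic genes took a larger share of the footprints than of the RNA. The genes differed widely. By the edgeR call, all 4 endocytosis genes and 6 of 8 genes of the SNARE group were higher in footprints. So were 5 of 7 calcium sensors and Rab3 partners and 5 of 8 vesicle membrane genes and synapsins. Among the 6 active zone scaffolds, 4 were called lower and 1 higher. The median log2 ratio was 0.82, against -0.01 over all genes, and the values ran from -1.42 to 2.67. By edgeR, 21 of 33 members were called higher, where 36.5% of all genes were called higher (4710 genes), and 8 of 33 lower, where 38.2% were (4933 genes). With TMM scaling within each assay, 20 members were called higher, where 27.3% of all genes were (3524 genes), and 9 lower, where 48.1% were (6209 genes). The median of all genes was then -0.24, and relative to it the median of the members was 0.83 under both scalings, with 24 of 33 members above it in both. A change of scaling moves every gene by about the same step, so this agreement was fixed in advance. Footprints come from coding sequence and RNA from the whole transcript, so these ratios also carry the share of each transcript that is coding.

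**Figure D5:**
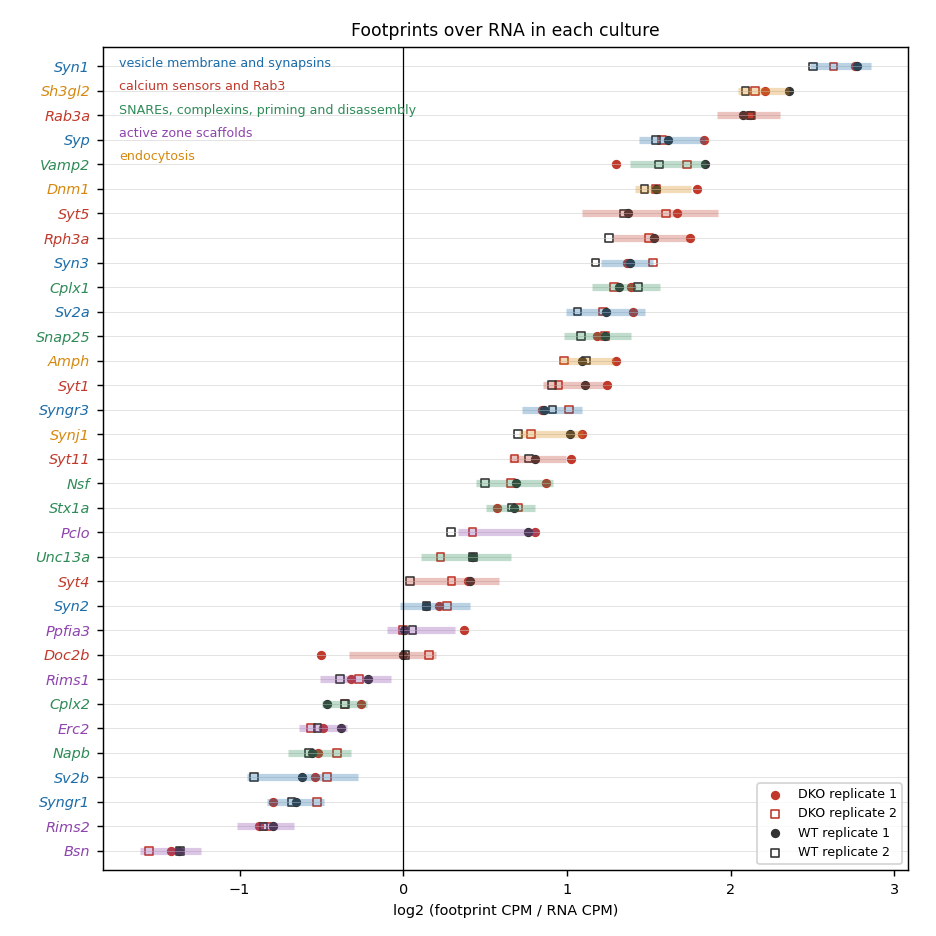
Log2 ratio of footprint CPM to RNA CPM for each presynaptic gene, in order from Syn1 (2.67) to Bsn (-1.42). Symbols are the 4 cultures (DKO in red, WT in black), shaded bars are the 95% intervals of the edgeR fit and gene labels are coloured by role, with active zone scaffolds mostly in the lower part.

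Among vesicle membrane genes and synapsins, 5 of 8 were called higher and 2 lower. Syn1, the best known synapsin, stood highest of all 33 genes. It had 342 and 348 CPM in DKO footprints and 366 and 296 CPM in WT footprints, beside 50.3 and 56.2 CPM in DKO RNA and 53.5 and 52.3 CPM in WT RNA. The footprint share was thus far above the RNA share in every culture (log2 ratio 2.67 ± 0.09, 6.37-fold, adjusted p = 4.2e-10, edgeR), and Syn1 lies on the X chromosome at 20860511 to 20921004 (GRCm38). Syp was at 1.64 ± 0.09, from 1116 and 1137 CPM in DKO footprints and 1081 and 968 CPM in WT footprints, beside 312 and 380.2 CPM in DKO RNA and 353 and 332 CPM in WT RNA (adjusted p = 1.45e-08, edgeR).

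Syn3 (1.37 ± 0.07), the vesicle glycoprotein Sv2a (1.23 ± 0.11) and Syngr3, another synaptogyrin (0.91 ± 0.08), were the others called higher. With protein-coding isoforms alone, Syngr3 was at -0.14 ± 0.10 and not called (adjusted p = 0.222, edgeR). Syngr1 was lower in footprints in all 4 cultures, with 99.1 and 119 CPM in DKO footprints and 102 and 90.9 CPM in WT footprints, beside 172 and 172 CPM in DKO RNA and 161 and 146 CPM in WT RNA (-0.66 ± 0.08, adjusted p = 1.01e-05, edgeR). Sv2b was lower as well, with 43.2 and 62.4 CPM in DKO footprints and 56.7 and 46.3 CPM in WT footprints, against the RNA values given above (-0.62 ± 0.15, adjusted p = 0.00509, edgeR). Its call was lost without the culture WT replicate 2 (-0.54 ± 0.21, adjusted p = 0.0777, edgeR). Syn2 was not called (0.19 ± 0.10, adjusted p = 0.0941, edgeR), and with protein-coding isoforms alone it was called lower (-2.56 ± 0.14, adjusted p = 5.85e-07, edgeR). With all isoforms and without the culture WT replicate 1 it was called higher (0.22 ± 0.09, adjusted p = 0.0482, edgeR).

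Among the calcium sensors and Rab3 partners, 5 of 7 were called higher and 0 lower. Rab3a had 1132 and 1169.5 CPM in DKO footprints and 1191 and 1066 CPM in WT footprints, beside 261 and 268 CPM in DKO RNA and 283 and 245 CPM in WT RNA. Its ratio hardly varied between cultures (2.12 and 2.12 in DKO, 2.07 and 2.12 in WT), for a fitted 2.11 ± 0.09 (4.31-fold, adjusted p = 1.6e-09, edgeR). Syt5 (1.51 ± 0.18), Rph3a (1.51 ± 0.10), Syt1 (1.06 ± 0.09) and Syt11 (0.82 ± 0.08) were higher too. Syt4 (0.30 ± 0.13, adjusted p = 0.0576) and Doc2b (-0.07 ± 0.12, adjusted p = 0.642) were not called by edgeR. Syt4 was called without either WT culture (0.22 ± 0.09, adjusted p = 0.0453, without replicate 1, and 0.38 ± 0.10, adjusted p = 0.00270, without replicate 2).

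Among the SNAREs, complexins, priming and disassembly factors, 6 of 8 were called higher and 2 lower. Snap25 had 1003 and 1078 CPM in DKO footprints and 1080.2 and 864 CPM in WT footprints, beside 442 and 459 CPM in DKO RNA and 460.3 and 407 CPM in WT RNA (1.19 ± 0.09, adjusted p = 2.84e-07, edgeR). Vamp2 (1.62 ± 0.11), Cplx1 (1.36 ± 0.10), Nsf (0.68 ± 0.11), Stx1a (0.66 ± 0.07) and Unc13a (0.38 ± 0.12) were the others called higher. Napb (-0.51 ± 0.09) and Cplx2 (-0.36 ± 0.06) were called lower. The call of Unc13a was lost with TMM within each assay (0.15 ± 0.12, adjusted p = 0.275, edgeR), without the culture DKO replicate 1 (adjusted p = 0.133) or DKO replicate 2 (0.0726), without the RNA of DKO replicate 1 (0.0599) and without the footprints of DKO replicate 2 (0.0631). The value of Vamp2 rests on isoforms that are not annotated as protein coding, and with protein-coding isoforms alone it was called lower (-1.56 ± 0.24, adjusted p = 0.00111, edgeR). The value of Unc13a rests on such isoforms entirely, since none of its listed isoforms is annotated as protein coding.

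Of the 6 active zone scaffolds, 4 were called lower and 1 higher. Bsn stood lowest of all 33 genes, with 12.9 and 13.8 CPM in DKO footprints and 12.96 and 12.4 CPM in WT footprints, beside the RNA values given above (-1.42 ± 0.09, 0.373-fold, adjusted p = 2.8e-08, edgeR). Its listed isoform holds 3511 of 11826 annotated coding bases, so that neither footprints nor RNA reads on the rest of the coding sequence are in its counts. Rims2 had 46.1 and 41.5 CPM in DKO footprints and 44.7 and 38.9 CPM in WT footprints, beside 85.0 and 73.9 CPM in DKO RNA and 77.6 and 70.3 CPM in WT RNA (-0.84 ± 0.08, adjusted p = 1.29e-06, edgeR). The RNA was above the footprints in every culture. Erc2 (-0.49 ± 0.07) and Rims1, the relative of Rims2 (-0.29 ± 0.10), were also called lower, and Ppfia3, the scaffold liprin (0.11 ± 0.09, adjusted p = 0.312, edgeR), was not called. The call of Rims1 was lost without the culture DKO replicate 1 (adjusted p = 0.142, edgeR) or DKO replicate 2 (0.102), and without the RNA of DKO replicate 1 (0.0813) or WT replicate 1 (0.0740) or the footprints of DKO replicate 2 (0.0841) or WT replicate 2 (0.0695). Pclo, the giant scaffold piccolo, was called higher (0.58 ± 0.11), but with protein-coding isoforms alone it was called lower (-2.59 ± 0.21, adjusted p = 7.74e-06, edgeR).

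All 4 endocytosis genes were called higher, with a median of 1.36. Sh3gl2, endophilin, which bends the membrane of the forming vesicle, had 165 and 169.9 CPM in DKO footprints and 171 and 157 CPM in WT footprints, beside 35.8 and 38.3 CPM in DKO RNA and 33.4 and 36.8 CPM in WT RNA. The 2 assays stood far apart in every culture (2.20 ± 0.07, 4.596-fold, adjusted p = 4.2e-10, edgeR). Dnm1 (1.59 ± 0.08), Amph, amphiphysin, which brings dynamin to the membrane (1.12 ± 0.08), and Synj1, the lipid phosphatase that helps shed the clathrin coat (0.90 ± 0.09), followed. None of the listed isoforms of Synj1 is annotated as protein coding, so its value rests on other isoforms. With protein-coding isoforms alone, Sh3gl2 (2.21), Dnm1 (1.42) and Amph (1.155) were still called higher by edgeR.

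Per length, footprints per kilobase of coding sequence were set over RNA per kilobase of transcript. This was done for the 28 genes with a full coding sequence among their listed isoforms. The coding length used was that of the protein-coding isoform with most RNA. In Vamp2 it has 348 of 489 bases, in Sh3gl2 1056 of 1293 and in Syn2 1437 of 1758, which raises their values per length. The median log2 ratio was 2.11, against 1.03 over the 12076 genes tested with a full coding sequence, and 24 of the 28 were above that median. The highest were Vamp2 (4.24, mostly from isoforms not annotated as protein coding), Cplx1 (3.71), Sh3gl2 (3.38), Syn1 (3.37) and Cplx2 (3.26). The 4 below the median of all genes were Rims2 (-0.83), Ppfia3 (0.48), Erc2 (0.53) and Sv2b (0.78), of which the first 3 are active zone scaffolds. The coding share of the transcript had a median of 41.4% in the 28 genes, against 52.6% over all such genes, and across the 28 it correlated with the log2 ratio before correction for length at r = 0.14 (Spearman's rho = 0.21). Coding GC content had a median of 55.8% in them, against 53.0%, and correlated with that ratio at r = 0.24 (rho = 0.22). Both are descriptions over genes from the same libraries.

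Paralogues within a family held different proportions in the 2 assays. The log2 ratio of the pair was taken in each library, and the 4 footprint libraries were compared with the 4 RNA libraries by an exact two-sided permutation test for 13 pairs, for which 0.0286 is the smallest p the design allows. It was reached by 10 pairs (0.0371 after Benjamini-Hochberg adjustment over the 13), so that no footprint library overlapped with an RNA library in any of the 10. Syn1 over Syn2 was 0.36 ± 0.10 in footprints and -2.12 ± 0.16 in RNA (SD, n = 4 each), so that Syn1 led in footprints and Syn2 in RNA. The RNA of Syn2 was assigned largely to other isoforms than its footprints, which bears on this pair.

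Cplx1 over Cplx2, the pair whose sequences are printed above, was 1.90 ± 0.24 in footprints and 0.18 ± 0.18 in RNA (SD, n = 4 each; exact permutation p = 0.0286). The coding sequences are equally long, but the transcript of Cplx1-201 has 2189 bases and that of Cplx2-201 has 4928. Per length, Cplx1 had 920.1 ± 120 and Cplx2 245 ± 12.8 footprint CPM per kilobase of coding sequence, and 70.1 ± 5.94 and 25.7 ± 1.15 RNA CPM per kilobase of transcript (SD, n = 4). The log2 ratios per length, 3.71 for Cplx1 and 3.26 for Cplx2, thus stood closer than the ratios of counts. A shorter form, Cplx1-202 of 434 bases, took 72.7% of the Cplx1 footprints and 7.88% of the Cplx1 RNA.

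Sv2a over Sv2b was 3.18 ± 0.14 in footprints and 1.31 ± 0.12 in RNA, and Syngr1 over Syngr3 was -1.49 ± 0.08 in footprints and 0.09 ± 0.09 in RNA (SD, n = 4 each; exact permutation p = 0.0286 for both). Per length, the log2 ratio of footprints to RNA was 2.19 for Sv2a and 0.78 for Sv2b, and 1.89 for Syngr1 and 2.43 for Syngr3. A processed transcript, Syngr3-202, took 51.8% of the Syngr3 footprints and 0.292% of the Syngr3 RNA, which bears on both Syngr comparisons. With protein-coding isoforms alone, the log2 ratio of footprints to RNA was -0.65 for Syngr1 and -0.14 for Syngr3, which stood closer together. Syt1 over Syt4 was 0.23 ± 0.22 in footprints and -0.54 ± 0.15 in RNA, and Rims1 over Rims2 was -0.31 ± 0.09 and -0.85 ± 0.05 (exact permutation p = 0.0286 for both, n = 4 each). The listed isoforms of Rims1 hold 2186 of 4272 annotated coding bases and those of Rims2 all 4716, which bears on that pair. The 3 pairs that did not pass were Syt1 with Syt5 (exact permutation p = 0.2), Syt1 with Syt11 (0.0857) and Syt5 with Syt11 (0.114). That test does not use the pairing of libraries by culture. Within cultures, all 13 pairs, these 3 included, kept 1 sign in all 4 cultures. Syt1 over Syt11 stood higher in footprints than in RNA by 0.22 and 0.27 on the log2 scale in DKO cultures, and by 0.30 and 0.14 in WT cultures.

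kallisto shares the reads of a gene among its isoforms, and for 10 of the 33 genes the leading isoform differed between footprints and RNA. In 9 of these 10 the leading isoform was the shorter one in footprints. Snap25-202, of 1014 bases and with the upstream exon printed above, took 55.3% and 57.2% of the Snap25 footprints in DKO and 52.8% and 59.0% in WT, beside 3.19% and 3.65% of the Snap25 RNA in DKO and 2.75% and 1.92% in WT. Snap25-201, of 2116 bases and with the downstream exon, took 95.3% of the RNA and 44.2% of the footprints on average. Both forms have 618 coding bases. Whether the shares follow the exon used or the length of the transcript was not tested. The genotypes overlapped in footprints and not in RNA, where both DKO libraries had the larger share of Snap25-202. How often the isoform shares of other genes separate in this way was not counted, so no genotype difference is read from it. No test was made of these shares, which are estimates.

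In Syn2, an isoform annotated as a retained intron took 92.0% of the footprints and 0% of the RNA. Vamp2-201, the protein-coding form with most of the Vamp2 RNA (95.5%), took 8.57% of the Vamp2 footprints, and 54.2% went to a processed transcript and 34.6% to a retained intron. Over the 33 genes, the leading footprint isoform was not annotated as protein coding in 7 and the leading RNA isoform in 5. With protein-coding isoforms alone, the footprint to RNA ratio turned negative for Vamp2, Pclo, Syn2 and Syngr3, as given above, and no value could be had for Unc13a and Synj1. Of the 31 genes left, 16 were called higher by edgeR, where 35.3% of all genes in that fit were, and 11 lower, where 38.2% were.

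A wider list of 79 other presynaptic genes was examined the same way, of which 76 were in the table and 72 were tested. Between genotypes edgeR called 0 of 72 in footprints (1 at an unadjusted p under 0.05), 0 in RNA (2) and 0 in translational efficiency (0). The smallest p in footprints were those of Syt12 (0.31 ± 0.11) and Sgip1, an endocytosis factor (0.24 ± 0.11). In RNA they were those of Syt2, a calcium sensor of fast release (-0.28 ± 0.09), and Doc2a, the relative of Doc2b (0.46 ± 0.17), and in translational efficiency those of Syt2 (0.18 ± 0.13) and Stxbp5l (0.19 ± 0.16). Between assays 27 of 72 were called higher in footprints, where 36.5% of all genes were, 24 lower, where 38.2% were, and 21 not at all, with a median log2 ratio of 0.10, against 0.82 for the 33 genes and -0.01 over all genes. Among the higher ones with the smallest p were Sncb, beta-synuclein (3.24 ± 0.11), Sncg, gamma-synuclein (1.63 ± 0.07), and Rab3b, the relative of Rab3a (2.46 ± 0.10). Of the 24 lower ones, the 4 with the smallest p were Rab3gap1, which inactivates Rab3 (-1.62 ± 0.07), the small Rims relatives Rims3 (-1.55 ± 0.07) and Rims4 (-1.20 ± 0.08), and Snapin, which binds Snap25 (-1.05 ± 0.07). No test was made of the difference between the 2 lists.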

How the data were processed

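Estimated counts per Ensembl transcript, made by the authors with FastQC, Trimmomatic, Bowtie and kallisto per the submitters' processing notes (no versions), were deposited as whole numbers. Footprints were prepared with the ARTseq kit, per the labels' protocols. What the authors used as genome build, annotation and strand setting is not stated in the sources at hand, so counts of overlapping genes and of near-identical copies are uncertain. Of 60528 transcripts, 60444 (99.86%) matched GENCODE M21 (GRCm38). The other 84 were left out. Counts were summed per gene, and isoforms not annotated as protein coding, 9.74% to 14.8% of a library's counts, were included.

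A quasi-likelihood model (edgeR 4.0.16 in R 4.3.3) with TMM scaling took the 8 libraries as 4 groups, with 4 residual degrees of freedom. A gene had to pass filterByExpr (minimum count 10) in footprints and in RNA, which left 12898 tested and 5403 not tested. Genes with a Benjamini-Hochberg adjusted p under 0.05 over all tested genes were called. CPM uses TMM library sizes. The procedure was tested on simulated data. RNA per kilobase uses the mean isoform length weighted by RNA counts, coding length and sequence are those of the protein-coding isoform with most RNA, and these choices and the 90% limit were made after seeing the annotation. The members, the gene lists and the tests were chosen with earlier results of these data known. Values per library are given for the 3 members per direction with the smallest p in each comparison of genotypes, for the 4 highest and 4 lowest in footprints over RNA and by level per length. Others were named after their values were seen. Of the wider list, values chosen by this rule are given with the exception of a gene not reported here.

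Footprint and RNA libraries of the same genotype and number were taken as 1 culture from their culture codes, which are spelled differently for DKO replicate 2. The deviations from the group means correlated between the assays of a culture (r = 0.605 for WT, 0.211 for DKO). Between genotypes, same-numbered libraries share only a number.

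The alternatives tried were other tools (DESeq2 1.42.0, limma-voom from limma 3.58.1), other scalings (RLE, TMM per assay), other filters (none, or mean counts from 50), protein-coding isoforms alone, 1 assay alone, each library or culture left out, and replicate blocks. A block with crossed numbers was chosen after seeing the data.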

Additional observations from a re-analysis of the deposited data

How the results depend on the processing

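Of the alternative values for the counts of called members and the medians, 176 lay within 1.5 times the count or within the spread between replicates, and 12 did not. The 176 include counts of 0 that stayed 0. They also include comparisons within 1 assay after a library of the other assay was left out, which could hardly move. The tally is thus no measure of stability. Without the culture WT replicate 1, 2 members were called in footprints and 1 in RNA, and the footprint median was 0.223. Without the culture WT replicate 2 the footprint median was -0.0517. With single libraries or cultures left out, the median ran from -0.0517 to 0.223 in footprints, from -0.0345 to 0.0991 in RNA and from -0.0535 to 0.2148 in translational efficiency. The median of footprints over RNA was 0.59 with TMM within each assay, a shift shared by all genes, and 0.37 with protein-coding isoforms alone, which leave 31 members. Of the named genes, Erc2 in footprints turned to 0.017 without the culture WT replicate 1. With single libraries or cultures left out, Erc2 in footprints ran from -0.1878 to 0.017, Syn2 in RNA from -0.3333 to 0.0271, Vamp2 in translational efficiency from -0.415 to 0.0285 and Doc2b from -0.5075 to 0.1507. In translational efficiency Syn3 turned to -0.0374 and Dnm1 to -0.2225 with protein-coding isoforms alone. The causes were not tested.

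With the replicate number as a replicate block and the libraries of 1 assay alone, 0 members were called in footprints (median 0.06) and 0 in RNA (median 0.01). With the culture as a replicate block, 0 were called in translational efficiency (median 0.07), and in footprints over RNA 23 were called higher and 8 lower, Syt4 and Syn2 being the additional ones. The deviations of same-numbered DKO and WT libraries correlated at -0.132 in footprints and -0.128 in RNA. With crossed numbers as the block, 0 members were called in either assay, and over all genes 3 higher and 10 lower in footprints and 1 higher and 3 lower in RNA.

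Over all genes, the counts of calls between genotypes were 1 higher in footprints and 2 higher in RNA. They were 4 higher and 1 lower in footprints and 6 and 7 in RNA by DESeq2, 11 and 13 in RNA with the number as a block, and 126 and 347 in RNA without the culture WT replicate 1. With 2 libraries a group, true changes of 2-fold or less could go uncalled, and the 10.4 CPM of Doc2b are the fewest footprints behind the value of any member.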
